A study of Mus musculus with 7 samples.

Results

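miR-223, a miRNA of neutrophils, monocytes and macrophages, and the 2 arms of miR-142, miR-142-3p and miR-142-5p, which blood cells of every white lineage make, were followed across 7 samples of mouse wound edge. The 3 were taken by assay name from the 306 miRNA assays of a real-time PCR plate, and each name matched 1 assay. The samples were wound edge tissue of C57Bl6 mice on day 3 after wounding, 4 from non-ischemic wounds and 3 from ischemic wounds. Ischemic wounds were made in a bipedicle flap, a band of skin that is cut free along its length and fed from its ends, which limits the blood that reaches its middle. Both groups were wounded and differed by label only in the flap, and the labels used here give no genotype beyond the strain, no age and no treatment. Whether each sample is a separate animal is not stated in the labels, and p-values therefore measure only how far these samples spread, some of which may be technical.

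A skin wound on day 3 is in its inflammatory phase, when neutrophils and then monocytes and macrophages enter from the blood. miR-223 is transcribed in the myeloid lineage, restrains the production and activation of neutrophils in mice, and is also carried by platelets. miR-142 is cut from 1 hairpin whose arms are both loaded into silencing complexes, and it is used as a general marker of blood-derived cells because epithelium, muscle and fibroblasts hardly make it. In a tissue extract, fewer cells of a type and less of the miRNA per cell cannot be told apart.

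The mature sequences are shown because the 3 assays read different molecules, of which 2 come from 1 precursor. They are given 5′ to 3′ from RefSeq (GRCm38.p6), and capitals mark the seed, bases 2 to 8, which pairs with targets.
miR-223-3p: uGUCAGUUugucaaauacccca
miR-142a-3p: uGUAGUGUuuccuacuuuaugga
miR-142a-5p: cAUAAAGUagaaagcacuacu
The assay named miR-223 was matched to the 3p form, for which the name without an arm was used when such plates were made. RefSeq writes miR-142a for the miR-142 of the plate. The 3 seeds differ from each other, and none of them occurs in another of the 1679 mature names of the RefSeq mouse table. miR-223 lies at chrX:96242884-96242905 on the plus strand, within the 110-base hairpin of Mir223. The arms of miR-142 lie at chr11:87756867-87756887 (5p) and chr11:87756903-87756925 (3p) on the plus strand, within the 64-base hairpin of Mir142. That hairpin is printed with both arms in capitals, to show that the 2 assays read pieces of 1 precursor.
Mir142 hairpin: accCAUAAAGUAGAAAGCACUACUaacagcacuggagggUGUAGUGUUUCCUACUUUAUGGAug

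All 3 miRNAs were present in the non-ischemic wound edge, miR-223 at a very high level. The measure is the threshold cycle (Ct), the PCR cycle at which product crosses a set line, so that a low Ct is a high level. A Ct below 35 was taken as detection, and 40 stands where no product was seen. Levels are given relative to 5S rRNA, as its Ct less that of the assay within a sample, a log2 scale on which 1 unit is 1 cycle. Between 91 and 106 miRNAs per sample were detected, and the Ct of 5S rRNA lay between 14.5 and 14.8 in all 7 samples. Ischemic sample 3 stood apart: over the 76 miRNAs detected in all samples its levels correlated with those of the other 6 samples at r = 0.756 to 0.830, against 0.908 to 0.977 among those 6. These are correlations across miRNAs, which are not independent replicates. Level differences and patterns are therefore given with and without ischemic sample 3.

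miR-223 had the highest level of all 103 tested miRNAs in 6 of 7 samples. Its level was -8.33, -8.34, -8.34 and -7.70 in non-ischemic samples 1 to 4, and -8.40, -7.82 and -12.76 in ischemic samples 1 to 3. The non-ischemic samples and ischemic samples 1 and 2 lay within 1 log2 unit of each other, with ischemic sample 1 just below and ischemic sample 2 within the non-ischemic range, and ischemic sample 3 lay far below all of them. Its raw Ct was 22.3 to 23.0 in those 6 samples and 27.3 in ischemic sample 3. miR-223 ranked 6th in ischemic sample 3, below miR-709, miR-720, miR-133b, miR-133a and miR-1, which apart from miR-709 were chosen after their values were seen. The next miRNA in the order of mean level over 7 samples was miR-709, a mouse assay, which lay below miR-223 in 6 of 7 samples. Levels of different assays also depend on how well each assay primes, so an order of levels is not an order of copies.

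miR-142-3p, which ranked 40th in mean level among the tested miRNAs, showed the same low value in ischemic sample 3 but a wider spread among the rest. Its level was -15.41, -16.72, -17.14 and -15.40 in non-ischemic samples 1 to 4, and -15.58, -15.83 and -20.49 in ischemic samples 1 to 3. Ischemic samples 1 and 2 lay inside the non-ischemic range, and ischemic sample 3 below it. Its Ct of 35.05 in ischemic sample 3 was just past the detection limit.

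miR-142-5p ranked 62nd and was the least abundant of the 3. Its level was -17.97, -17.61, -18.93 and -16.97 in non-ischemic samples 1 to 4, and -17.47, -17.42 and -22.04 in ischemic samples 1 to 3. Again ischemic samples 1 and 2 lay inside the non-ischemic range and ischemic sample 3 below it. At a Ct of 36.6 it was past the detection limit in that sample, where a level is imprecise. The miRNAs next to the 2 arms in the order of mean level, miR-99a and miR-92 for miR-142-3p, and miR-15b and miR-30d for miR-142-5p, differed from them by less than 0.1 on average, far less than the SD of 1.18 to 2.20 of those differences over 7 samples.

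**Figure D1:**
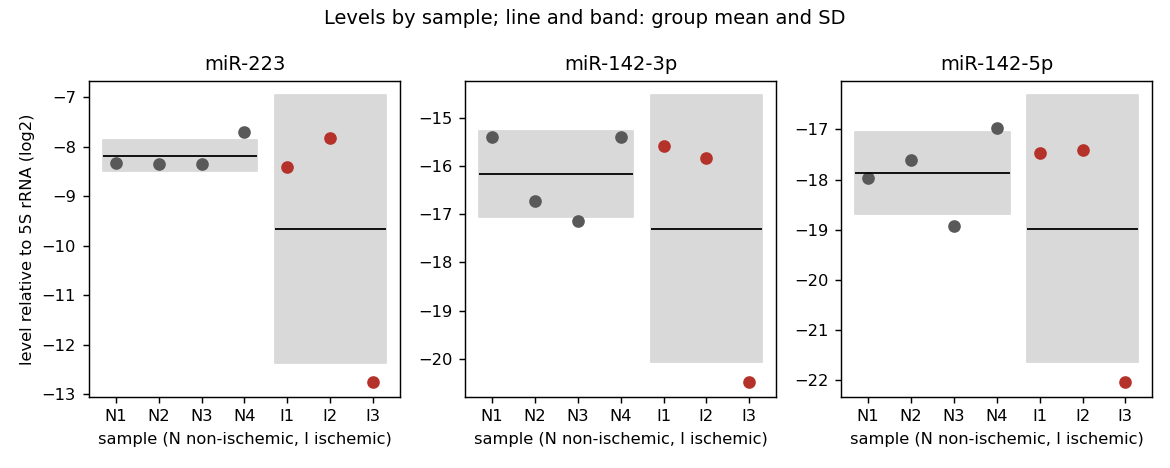
Level relative to 5S rRNA (log2, vertical axis, a separate range in each panel) of miR-223, miR-142-3p and miR-142-5p in non-ischemic samples N1 to N4 and ischemic samples I1 to I3, with 1 point per sample, and with each group's mean as a line and its SD as a band. In each panel I1 and I2 lie at the height of the non-ischemic samples and I3 lies alone at the bottom, at -12.76, -20.49 and -22.04.

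The spread among non-ischemic samples differed between the 3 miRNAs. The SD was 0.32 for miR-223, 0.90 for miR-142-3p and 0.82 for miR-142-5p (n = 4 each), where the median over all tested miRNAs was 0.48. Ordered from the smallest SD, miR-223 stood 25th and the arms of miR-142 93rd and 86th of 103. Over the 6 samples without ischemic sample 3, miR-223 had an SD of 0.31 and stood 12th. Over all 7 samples the SDs were 1.76, 1.82 and 1.74, among the 7 widest of the 103 tested miRNAs.

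All 3 miRNAs had a lower mean in ischemic than in non-ischemic samples, and the lower means came from ischemic sample 3. The mean of miR-223 was -9.66 ± 2.70 (SD, n = 3) in ischemic and -8.18 ± 0.32 (n = 4) in non-ischemic samples. The difference was -1.48 ± 1.04 (SE), or 2.80-fold lower, with a 95% interval of -3.86 to 0.89 and an adjusted p of 0.515 in limma. miR-142-3p differed by -1.13 ± 1.13 (interval -3.70 to 1.44) and miR-142-5p by -1.11 ± 1.08 (interval -3.57 to 1.36), with an adjusted p of 0.734 in limma for both. None of the differences exceeded the spread between samples. In exact permutation tests (two-sided, 35 arrangements), p was 0.286 for miR-223, 0.571 for miR-142-3p and 0.629 for miR-142-5p, where the smallest p these sizes allow is 0.0286.

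The direction of the 3 means was that of most of the plate. Of all tested miRNAs 76.7% had a lower mean in ischemic samples, and their median difference was -0.35. limma called 0 of 103 miRNAs (0%) at an adjusted p of 0.05, and 19 (18.4%) had an unadjusted p below 0.05, none of them miR-223 or an arm of miR-142. The groups overlapped for all 3, while they did not overlap for 17.5% of the tested miRNAs.

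Without ischemic sample 3, none of the 3 had a lower mean in the ischemic group, where 56.3% of all tested miRNAs still did. The difference was 0.07 ± 0.38 (SE) for miR-223, 0.46 ± 0.56 for miR-142-3p and 0.43 ± 0.52 for miR-142-5p, with adjusted p of 0.951, 0.668 and 0.668 in limma, a comparison of 2 with 4 samples. Over that same comparison limma called 8 miRNAs (7.77%), and the groups did not overlap for 34% of them all. Ischemic samples 1 and 2 both lay within the non-ischemic range for 2 of the 3 miRNAs, the arms of miR-142, and for 35% of all tested miRNAs. For miR-223, ischemic sample 1 lay 0.06 below the lowest non-ischemic sample.

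Averages of linear values gave smaller differences. In the authors' deposited table, which holds arithmetic means of the linear ratio to 5S rRNA, the fold of ischemic over non-ischemic was 0.712 for miR-223, 0.818 for miR-142-3p and 0.817 for miR-142-5p. On the log2 scale these folds of the authors' deposited table are -0.49, -0.29 and -0.29, each smaller in size than the difference of log2 means given above.

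In ischemic sample 3 all 3 miRNAs were low, and for the arms of miR-142 the detection limit gives only a bound. miR-223 deviated from the non-ischemic mean by -4.58 log2 units, or 24.0-fold. miR-142-3p deviated by -4.32 and miR-142-5p by -4.17 units, at late Ct values. With every late Ct set to 35, the detection limit, miR-142-3p was at least 19.4-fold and miR-142-5p at least 5.96-fold lower. The deviation of miR-223 amounted to -14.5 SDs of the non-ischemic samples, and those of miR-142-3p and miR-142-5p to -4.82 and -5.08 SDs. Each SD comes from 4 samples and that of miR-223 is the smallest, so these multiples do not rank the falls. With late Ct values as deposited, and ordered from the lowest of 103 deviations in that sample, miR-223, miR-142-3p and miR-142-5p stood at places 2, 3 and 4, after miR-18a at -5.23, whose Ct there was 39.6. In that sample 36.9% of the tested miRNAs were below all other 6 samples, and the median deviation was -0.53, so that relative to it the 3 stood at -4.06, -3.80 and -3.65.

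The low value was seen with 5S rRNA and with 6 other ways of setting the level. The deviation of miR-223 in ischemic sample 3 was -4.49 on raw Ct, -4.11 after global mean and -3.9975 after global median normalization, -5.08 against the mean of the snoRNAs, -4.81 against that mean without snoRNA202, and -4.95 after quantile normalization. Over the same 6 settings miR-142-3p lay between -4.82 and -3.64 and miR-142-5p between -4.67 and -2.97, at late Ct values. Of the control RNAs in that sample, 5S rRNA had a Ct of 14.6, and snoRNA202 a Ct of 27.7 against 27.8 to 32.0 in the non-ischemic samples. snoRNA135 had a Ct of 33.4 against 32.5 to 39.5, and snoRNA234 of 31.1 against 31.0 to 32.1.

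**Figure D2:**
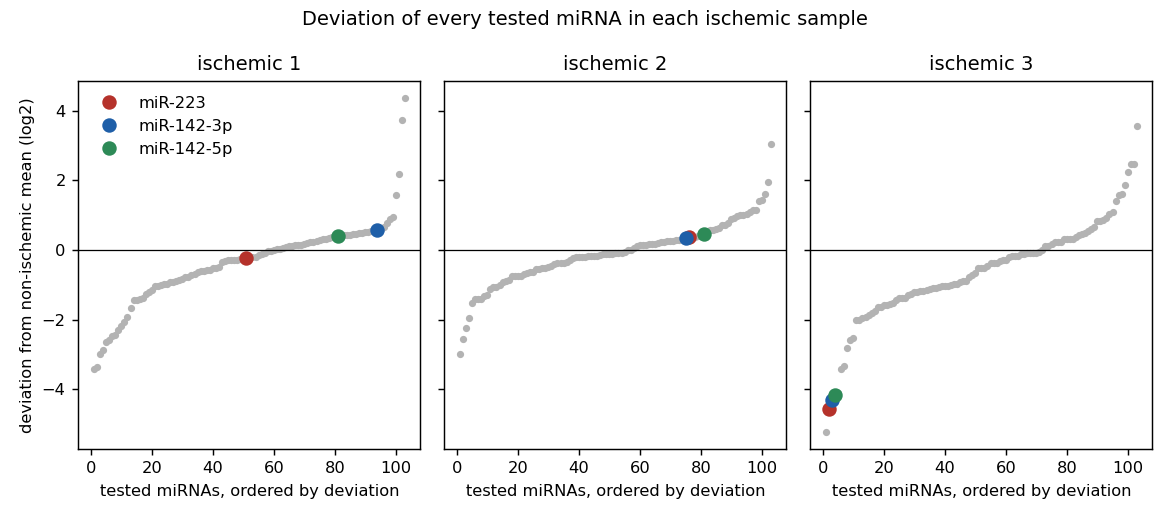
Deviation of each of the 103 tested miRNAs from its non-ischemic mean (log2, vertical axis) in ischemic samples 1, 2 and 3, each panel ordered from the lowest to the highest, with the 3 miRNAs in colour and 1 point per miRNA. In ischemic samples 1 and 2 the coloured points lie between -0.23 and 0.59, and in ischemic sample 3 between -4.58 and -4.17 at the low end.

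The 2 arms of miR-142 were compared within samples, where no reference RNA enters. miR-142-3p was above miR-142-5p in 7 of 7 samples, by 2.56, 0.89, 1.79 and 1.57 cycles in the 4 non-ischemic samples, in order, and by 1.89, 1.58 and 1.55 cycles in the 3 ischemic ones. In ischemic sample 3 both arms were past the detection limit, so that the value there rests on late Ct values and could not be measured reliably. With those Ct values as deposited, the mean was 1.70 ± 0.69 (SD, n = 4) in non-ischemic and 1.68 ± 0.18 (n = 3) in ischemic samples, a difference of -0.03 (exact permutation p = 0.943, Benjamini-Hochberg adjusted over 3 ratios 0.943). The 95% interval of that difference, from the same exact test, ran from -2.02 to 1.86. A shift between the arms within those bounds was not excluded, and the interval includes the late Ct values of ischemic sample 3. With every late Ct set to 35 the difference was -0.54 (exact permutation p = 0.457). Without ischemic sample 3 the arm difference had an SD of 0.54, beside SDs of 0.74 and 0.67 for the arms themselves. Among those 6 samples, the arms lay on the same side of their non-ischemic means in non-ischemic samples 3 and 4 and ischemic samples 1 and 2, and on opposite sides in non-ischemic samples 1 and 2.

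miR-223 was compared with each arm of miR-142 in the same way, and in ischemic sample 3 these differences also rest on late Ct values of the arms. It exceeded miR-142-3p by 7.08, 8.38, 8.80 and 7.70 cycles in the non-ischemic samples, in order, and by 7.18, 8.01 and 7.73 cycles in the ischemic ones. The group means differed by -0.35 (interval -2.23 to 1.77, exact permutation p = 0.543, adjusted 0.814). It exceeded miR-142-5p by 9.64, 9.27, 10.59 and 9.26 cycles in non-ischemic and by 9.06, 9.60 and 9.28 in ischemic samples. Here the means differed by -0.38 (interval -2.48 to 0.62, exact permutation p = 0.457, adjusted 0.814). Of the 3 ratios, none differed between groups beyond the spread. At the detection limit, miR-223 exceeded each arm by at least 7.69 cycles in ischemic sample 3, which for miR-142-5p is below the lowest non-ischemic value of 9.26, so whether that ratio held there was not measurable.

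**Figure D3:**
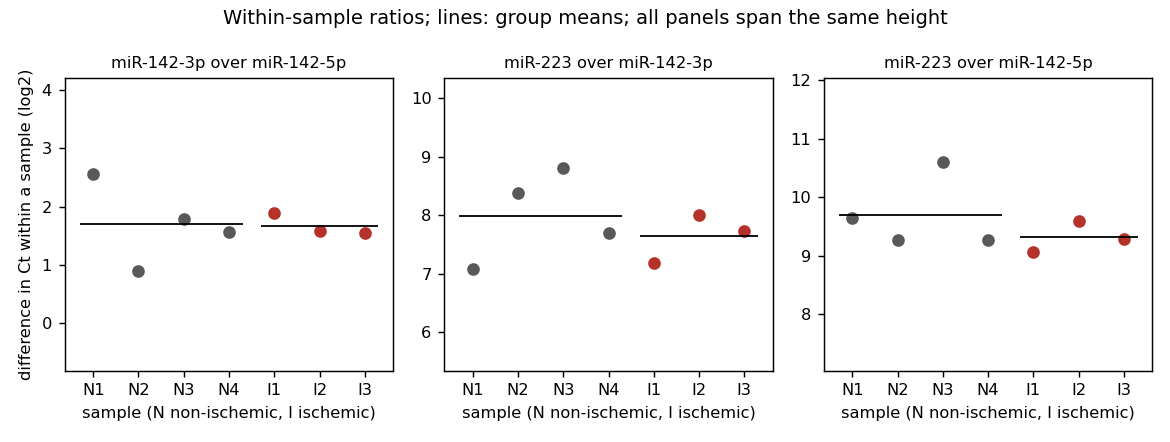
Difference in Ct between 2 assays of the same sample (log2, vertical axis, all panels spanning the same height) for miR-142-3p over miR-142-5p, miR-223 over miR-142-3p and miR-223 over miR-142-5p, with 1 point per sample and the group means as lines. The point of ischemic sample 3 lies at 1.55, 7.73 and 9.28, values that rest on Ct values of 35.05 and 36.6 past the detection limit.

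The miRNAs whose pattern over the 7 samples was most like that of the 3 were sought by the root mean square difference of levels, each centred on its own mean. The 3 were each other's 2 closest of 102 miRNAs, at 0.46 between the arms, 0.47 between miR-223 and miR-142-5p and 0.57 between miR-223 and miR-142-3p, where the median over all compared miRNAs was 1.60 to 1.66. Next to miR-223 came miR-18a (0.58), miR-19a (0.69) and miR-31 (0.73). Next to miR-142-3p came miR-18a (0.68), miR-21 (0.70) and miR-188 (0.70), and next to miR-142-5p miR-21 (0.62), miR-19a (0.81) and miR-188 (0.85). miR-21 and miR-31 are miRNAs raised in healing skin, and miR-18a and miR-19a are cut, with miR-17 and others, from clusters active in dividing cells. In ischemic sample 3 these miRNAs deviated by -5.23 (miR-18a), -4.12 (miR-31), -3.33 (miR-19a), -2.81 (miR-188) and -2.53 (miR-21). The Ct there was 39.6 for miR-18a and 38.4 for miR-188, and both arms of miR-142 were also past the detection limit. At that limit miR-142-5p deviated by -2.58 or more, against -4.58 for miR-223, so how alike the 2 were in that sample was not measurable.

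These likenesses depended on ischemic sample 3. Over the other 6 samples miR-142-5p and miR-142-3p ranked 53rd and 68th in likeness to miR-223, about the middle of the 102. In likeness to miR-142-3p and miR-142-5p, miR-223 ranked 27th and 13th. The arms ranked 19th and 11th in likeness to each other. Only miR-21 stayed among the 5 closest to miR-142-3p (0.35, rank 5) and to miR-142-5p (0.28, rank 1). For miR-223 none of the 5 stayed.

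Other lists of blood and tissue miRNAs stood elsewhere in ischemic sample 3. These lists rest on general knowledge and their members are also made by other cells of skin, and no member of any list passed an adjusted p of 0.05 in limma with all 7 samples. Without ischemic sample 3, 3 members did in limma, miR-451 higher by 3.71 (adjusted p = 0.00877) and miR-200b and miR-203 at -2.37 and -2.08 (adjusted p = 0.0176 and 0.0146). In that comparison limma called 8 of all 103 tested miRNAs (7.77%). The 3 list members were named after their values were seen. Of these, miR-451 was detected only in the 3 ischemic samples, so it was tested only through the group where it was high. Its difference and p rest on late Ct values in the non-ischemic samples and are not support for a change. The 3 tested lymphocyte miRNAs of 5 on the plate had a median difference of -0.33, against -0.35 over all tested miRNAs, and of -0.55 against -0.14 without ischemic sample 3, with miR-150 at -0.33 ± 0.36 (SE), miR-181b at -0.09 ± 0.46 and miR-342 at -0.98 ± 0.51 (adjusted p in limma of 0.734, 0.947 and 0.382). In ischemic sample 3 miR-150, a miRNA of mature B and T cells, lay 0.12 above its non-ischemic mean and miR-181b, which is high in developing lymphocytes, 0.43 above, while miR-342 lay 1.28 below. The mean deviation of the list in that sample was -0.25, against -0.85 and -0.30 in ischemic samples 1 and 2. In those 2 samples miR-223 deviated by -0.23 and 0.36, and both arms of miR-142 lay above their non-ischemic means.

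The inflammation-induced list had a median difference of -0.62, against -0.35 over all tested miRNAs. Without ischemic sample 3 it was -0.14, as it was over all tested miRNAs (-0.14). Of 5 members on the plate 4 were tested, and miR-132 gave no product in any sample. miR-21 was at -0.46 ± 0.77 (SE), miR-155, which NF-kB induces in macrophages, at -0.35 ± 0.57, and miR-146a and miR-146b, which restrain that signalling, at -0.78 ± 0.37 and -0.90 ± 0.37 (adjusted p in limma of 0.811, 0.799, 0.321 and 0.219). miR-155 deviated by -1.74 and miR-21 by -2.53 in ischemic sample 3, while in ischemic samples 1 and 2 both lay above their non-ischemic means. miR-146a and miR-146b lay below their non-ischemic means in all 3 ischemic samples, by -1.08 and -1.10 in ischemic sample 3. Without that sample the differences were 0.57 for miR-21, 0.34 for miR-155, -0.62 for miR-146a and -0.79 for miR-146b, none called by limma.

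The summed level of the skeletal muscle miRNAs was highest in ischemic sample 3. All 4 tested had higher means in ischemic samples, with a median difference of 1.28, and of 0.75 without ischemic sample 3. Their summed log2 level was -12.62 to -12.20 in the non-ischemic group. It was -12.02 and -11.27 for ischemic samples 1 and 2 and -10.16 for ischemic sample 3, and no member was at Ct 40 throughout. In ischemic sample 3 miR-1, miR-133a and miR-133b lay 2.48, 2.48 and 2.23 above their non-ischemic means, and miR-206 lay 0.64 above. Both erythroid miRNAs had higher means, with a summed log2 level of -21.63 to -19.13 in the non-ischemic group, and of -17.01, -18.10 and -17.57 in the ischemic samples in order, so that ischemic sample 3 lay between the others. One of them, miR-451, was past the detection limit in every non-ischemic sample. The other, miR-486, was detected in 5 of 7 samples, with a Ct of up to 38.2. It deviated by 1.57, 1.41 and 3.55 in the ischemic samples in order, the first 2 of these within its non-ischemic range of -2.15 to 1.95. The summed levels thus rest in part on late Ct values. The 5 tested keratinocyte miRNAs of 7 on the plate had a summed log2 level of -15.15 in ischemic sample 3 and of -15.27 and -15.71 in ischemic samples 1 and 2, against -15.17 to -14.27 in the non-ischemic samples. Of that list miR-200b, miR-200c and miR-203 were detected in all 7 samples. miR-200b and miR-200c deviated in ischemic sample 3 by -1.20 and -0.53 from their non-ischemic means, past the lowest non-ischemic sample. The other tested members of that list, miR-203, miR-205 and miR-429, deviated by -0.08, -0.30 and 0.24 there, each within its non-ischemic range. The 10 tested miRNAs of the miR-17 clusters and their paralogs had a mean deviation of -1.93 there, against 0.23 and 0.15 in ischemic samples 1 and 2. Single members ran in ischemic sample 3 from -5.23 for miR-18a, at a late Ct of 39.6, to -0.08 for miR-92. The part of muscle content in the low miR-223 and miR-142 of that sample was not tested.

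**Figure D4:**
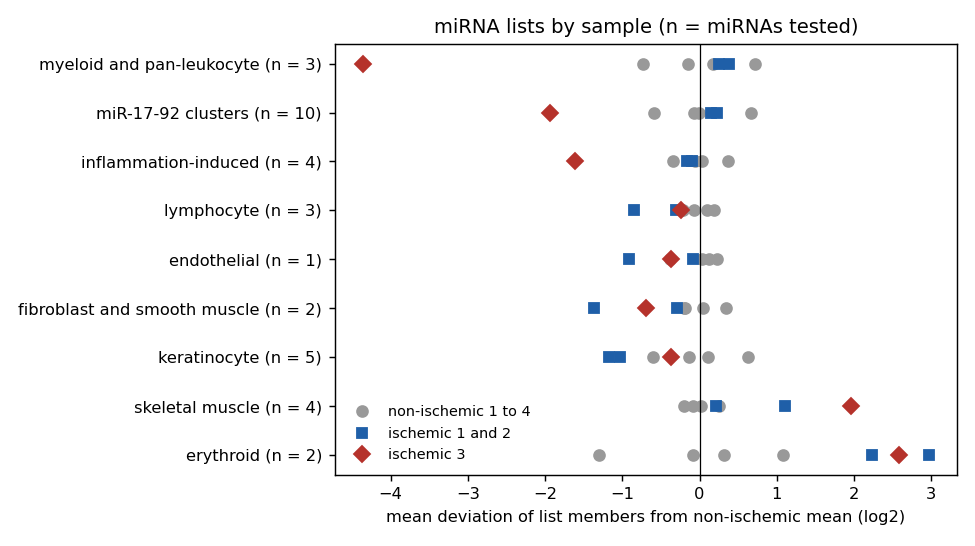
Mean deviation of the members of 9 miRNA lists from their non-ischemic means (log2, horizontal axis), with 1 symbol per sample and the number of miRNAs tested beside each list. Ischemic sample 3 lies at -4.36 for miR-223 and the arms of miR-142, at -1.93 for the miR-17 clusters, at -1.61 for inflammation-induced miRNAs, at -0.25 for lymphocyte miRNAs and at 1.96 for skeletal muscle miRNAs.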

How the data were processed

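Per the labels' protocols, 500 ng of RNA per sample was reverse transcribed with pooled looped primers and read by real-time PCR. No source used here names the software that set Ct. The authors deposited raw Ct for 316 assays, a delta Ct on a log2 scale, its linear ratio, and a table of group means with their fold. The deposited log2 delta Ct equals the Ct of 5S rRNA minus that of the assay for 315 assays within 0.0001 cycles, with the sign of 18S turned. The deposited linear ratio equals 2 to the power of that delta Ct. Raw Ct columns, which carry numbers only, were matched to samples through those delta Ct columns. The 7 repeated 5S rRNA columns were not used.

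Of 306 miRNAs, the 103 detected (Ct below 35) in 3 or more samples were fitted with limma 3.58.1 in R 4.3.3 (two-sided, Benjamini-Hochberg), all 3 described miRNAs among them. A fly miRNA assay and 9 control RNAs were left out. Within-sample ratios were compared by exact permutation tests, whose inversion gave the 95% intervals. The fits were tested on simulated data. No counts stand behind a Ct, so precision comes from the spread between samples. Alternatives were other references, filters, late Ct treatments, variance models, linear values, samples left out and a replicate block. The rule for naming miRNAs took the 3 described, the 5 closest patterns and the neighbours in level of each, and the lymphocyte and inflammation lists. The members and lists were chosen with earlier results of these data known.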

Additional observations from a re-analysis of the deposited data

Results flagged for a closer look

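miR-223 in non-ischemic sample 4, at -7.70, lay apart from the other 3 non-ischemic samples, which were within 0.012 of each other. Its gap of 0.62 to the nearest made up 0.98 of the range of the group, above Dixon's 95% critical value for 4 samples. Of 6 quantities looked at (3 levels and 3 ratios) it was the only one past that value, and chance flags about 1 group in 20. In the same sample 95 of the 103 tested miRNAs lay above their non-ischemic mean, with a median deviation of 0.42 against 0.47 for miR-223, and after global mean normalization the deviation of miR-223 was 0.05.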

How the results depend on the processing

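The sign of the 3 level differences held under every alternative except that without ischemic sample 3, where it reversed to 0.066 for miR-223, 0.46 for miR-142-3p and 0.43 for miR-142-5p. The number of the 3 with a lower mean went from 3 to 0 there, an alternative chosen after seeing the data. When each sample was left out, the difference ran from -2.40 to 0.066 for miR-223, from -1.99 to 0.46 for miR-142-3p and from -1.89 to 0.43 for miR-142-5p. Over the other alternatives it ran from -1.65 to -0.49, from -1.29 to -0.29 and from -1.26 to -0.29, the smallest on linear values, and no alternative brought an adjusted p below 0.260. With only miRNAs detected in all 7 samples the arms of miR-142 drop out. The number of miRNAs called by limma was 1 after global median and after quantile normalization, 0 to 8 over samples left out, with 8 without ischemic sample 3, and 0 otherwise. The arm difference of miR-142, at -0.03, turned to 0.26 and 0.0038 without non-ischemic samples 1 and 3, and to 0.02 and 0.03 without ischemic samples 2 and 3, a range of -0.30 to 0.26. miR-223 relative to miR-142-3p ran from -0.65 to -0.08 and relative to miR-142-5p from -0.52 to -0.08 over samples left out, and with late Ct set to 35 these were -0.37 and -0.91 and the arm difference -0.54. With the replicate number as a block the level differences were -1.33, -0.88 and -0.81 and the 3 ratio differences -0.07, -0.45 and -0.52. These are the differences without non-ischemic sample 4, which has no ischemic sample of its number. No call changed, though for the ratios 3 pairs were too few for any call. Whether the numbers pair the samples is not stated in the labels. Same-numbered deviations, each centred on its group mean, correlated at -0.08, -0.30 and -0.11, among pairs running from -0.43 to 0.41. So few centred samples cannot settle pairing. The causes of these shifts were not tested beyond the samples left out. Signal limits miR-142 most, with Ct values of 35.05 and 36.6 in ischemic sample 3.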
